A study of Mus musculus with 30 samples.

Results

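The 24 h response of the parental line to mafosfamide was read from 10 of the 30 arrays of the series, the 5 labelled 0 h and the 5 labelled 24 h, which were chosen by these labels alone. The cells were B-lineage lymphoma cells of genotype Eµ-Myc Cdkn2a-/- on a C57BL/6J background. They form 1 line grown out from lymphoma cells, so the 5 replicates are cultures of that line. The p-values below measure the spread between arrays that is left after the terms of each fit, such as time and replicate number, are removed. In Eµ-Myc mice an enhancer of the antibody heavy chain locus drives Myc in B cells. All 30 arrays carry the Cdkn2a deletion, so untreated cells lack this locus as well. Mafosfamide, a form of cyclophosphamide that is active in culture, was added at 0 h to 750 nM. The flasks also held irradiated Cdkn2a-/- mouse embryonic fibroblasts as feeders, and these received the drug with the lymphoma cells; no step that removed them is given in the sources used here. The other 20 arrays were the parental line at 6, 12 and 48 h (13 arrays) and resistant lines (7 arrays). The lines R500, R1000 and R4000, derived from the parental line by escalating doses, were each measured once untreated and once after 24 h at 750 nM, and share no array with the parental comparison.

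Mafosfamide is an alkylating agent that crosslinks DNA. Crosslinks stall replication and engage damage kinases, which stabilise p53, and p53 in turn switches on inhibitors of the cell cycle, pro-apoptotic genes and its own negative regulators. Electrophilic drugs can also release the transcription factor NRF2 from KEAP1, and NRF2 then switches on genes of glutathione and quinone metabolism. In lymphoma cells from which Cdkn2a is lost, p53 lacks its activator ARF but can still be reached through the DNA damage kinases. Fibroblasts are defined by matrix proteins such as collagens and by contractile proteins such as smooth muscle actin, neither of which belongs to B cells.

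All values are log2 expression from robust multi-array averaging, which puts the arrays on a common scale, so a change in the total RNA per cell is not visible. A difference of 1 on this scale is a 2-fold change. The Cdkn2a probe set stood at 7.37 at 0 h and 7.36 at 24 h on average, with no array outside 7.19 to 7.56, near the median of all genes. Both sides of the comparison carry the deletion, so this probe set checks no contrast (difference -0.02, adjusted p = 0.878). The array of replicate 5 at 0 h stood apart from the others, with an interquartile range of 2.97 over all genes against 3.41 to 3.75 on the other 9 arrays.

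The comparison was fitted with limma over all 23 parental arrays with the replicate number as a block, and a gene was called where the Benjamini-Hochberg adjusted p over 19937 genes was under 0.05. At 24 h, 4711 genes were called (23.6%), of which 2348 were higher (11.8%) and 2363 lower (11.9%). The rises were larger than the falls. A change of at least 2-fold was reached by 176 genes that rose (0.883%) and by 7 that fell (0.0351%), and the median change over all genes was -0.04. Without the block 867 genes were higher (4.35%) and 484 lower (2.43%), all of them among those called with it. With only the 10 arrays of 0 h and 24 h in the blocked fit, 282 were higher and 27 lower. Median centring of the arrays turned the balance to 1872 higher and 3618 lower, and centring on housekeeping genes to 1962 higher and 3300 lower.

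RNA of fibroblast genes rose on every 24 h array relative to its 0 h partner, but by very different amounts. The fibroblast level of an array is the mean of 54 measured genes, 28 of the matrix and 26 of contraction and adhesion. It stood at 8.03, 8.01, 8.03, 8.54 and 8.22 at 0 h and at 9.66, 9.31, 8.22, 9.02 and 8.78 at 24 h in replicates 1 to 5. The rise was 1.63 in replicate 1 and 1.30 in replicate 2, 0.48 and 0.56 in replicates 4 and 5, and only 0.19 in replicate 3, so that the third 24 h array lay below the fourth 0 h array. The mean of 18 pan B cell genes moved from 12.0 ± 0.11 to 12.0 ± 0.06 (SD, n = 5 each), and 0 of the 18 were called with limma (1 higher and 2 lower at an unadjusted p under 0.05, 1 lower after median centring and 2 lower after housekeeping centring). In the resistant lines the fibroblast level was lower after the drug. It went from 8.34 to 8.12 in R500, from 8.18 to 8.10 in R1000 and from 8.36 to 7.83 in R4000. A rise of this level can come from fewer lymphoma cells per feeder cell or from more of these RNAs per feeder cell, and these cannot be told apart.

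**Figure D1:**
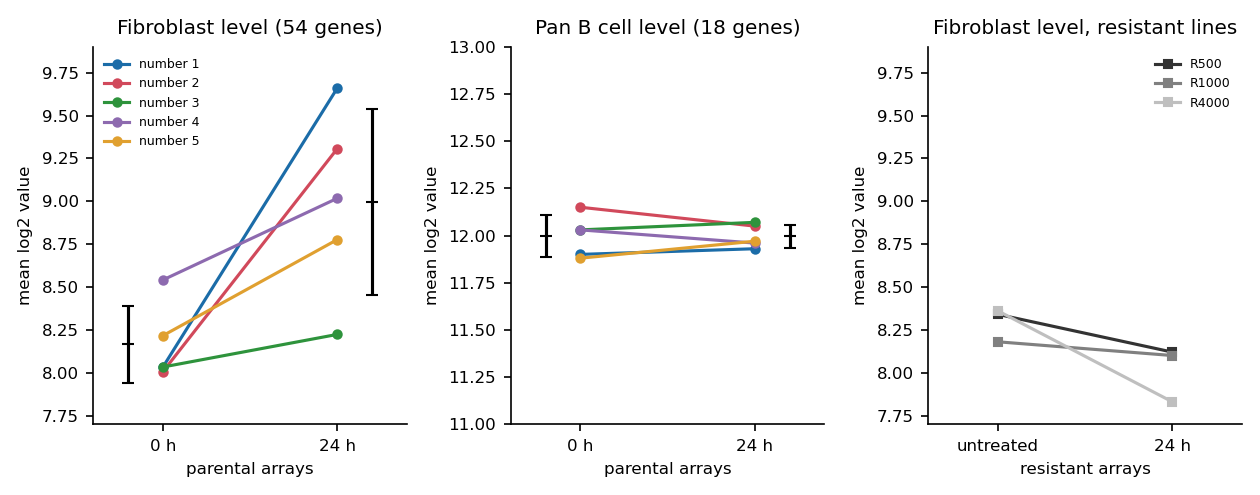
Mean log2 value of 54 fibroblast genes (left) and of 18 pan B cell genes (middle) on each parental array, with lines joining the 0 h and 24 h arrays of a replicate number and black bars giving mean ± SD (n = 5), and of the fibroblast genes in 3 resistant lines (right, 1 array per point). The fibroblast level rose by 1.63 in replicate 1 and by 0.19 in replicate 3, was lower after the drug in each resistant line, and the pan B cell level stayed near 12.

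To separate feeder RNA from changes of the lymphoma cells, genes were grouped by their course. For each gene the mean of each time was removed from the 23 parental arrays, and what was left was correlated with the same remainder of the fibroblast level. A gene ran with the level at r of 0.7 or more (836 genes), against it at -0.7 or less (47 genes) and otherwise between (19054 genes). These r are descriptions over 23 arrays of 5 replicate numbers, and each gene of the level was correlated with the mean of the others. The comparison was also fitted with the fibroblast level of each array as a covariate, which asks what remains of a change at equal fibroblast level. With it, 2237 genes were called (11.2%), 1714 higher (8.6%) and 523 lower (2.62%). This count rested on single arrays: it was 533 without the 0 h array of replicate 3, 941 without its 24 h array, 1311 and 887 without the 0 h and the 24 h array of replicate 5, and 4030 without the 0 h array of replicate 4.

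Most of the large rises ran with the fibroblast level. Of the 176 genes at least 2-fold higher, 133 did so, 42 lay between and 1 ran against it. The median change of the 133 was 2.36, 2.09, 0.35, 0.67 and 1.04 in replicates 1 to 5, and it was 0.03 with the level in the fit, where 13 of the 133 were still called. The grouping itself largely sets both, since these genes were taken for following the level on these arrays. In the resistant lines, 113 of the 133 (85%) were lower in all 3, against 21.5% of all genes. The 42 rises in between had medians of 1.56, 1.09, 1.60, 1.05 and 1.37 in replicates 1 to 5. With the level 30 of them were still called (median 1.20), and 22 (52.4%) were higher in all 3 resistant lines, against 14.5% of all genes. The resistant lines have 1 array a state and were not tested.

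**Figure D2:**
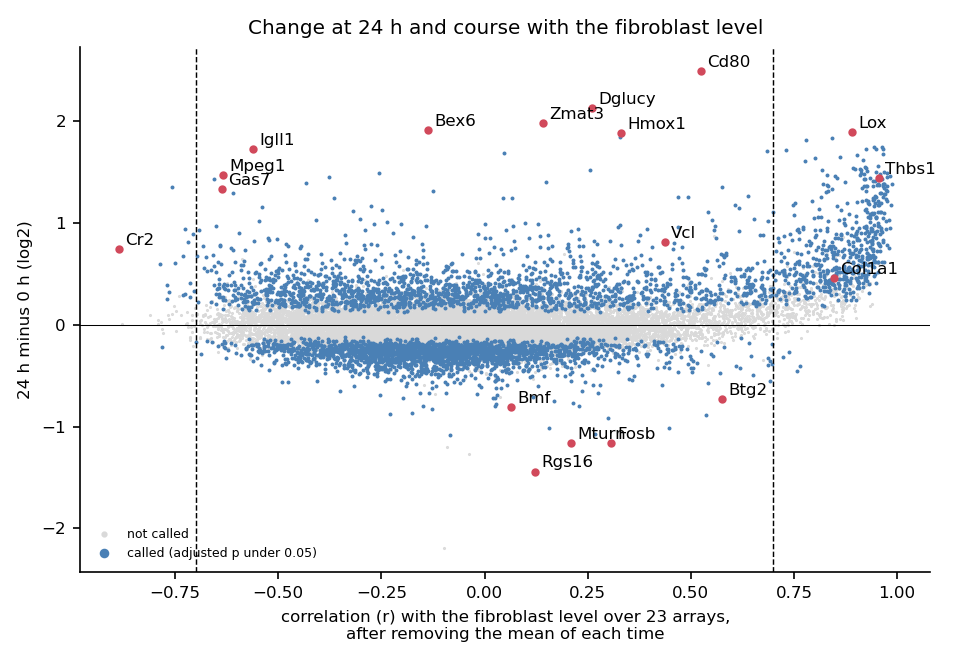
Each point is 1 of 19937 genes, with the correlation of its course with the fibroblast level over 23 parental arrays on the x axis and its log2 change at 24 h on the y axis; blue points were called and dashed lines mark r of -0.7 and 0.7. Rises of more than 1 gather at the right, with Lox and Thbs1, while Cd80, Dglucy, Zmat3 and the falls lie between the lines.

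Among the matrix genes, 18 of 28 rose, with a median change of 0.69 over the list. Without the block 11 were called, without the 2 arrays at 24 h of highest fibroblast level 5, and without replicate 1 or replicate 2 at both times 12. With only the 10 arrays of 0 h and 24 h, 2 were called with the block and 0 without it (limma, 18 at an unadjusted p under 0.05 in either fit). Over all genes 11.8% were higher. Lox, which encodes the lysyl oxidase that crosslinks collagen, stood at 8.04, 6.94, 6.79, 7.77 and 6.83 at 0 h and at 10.76, 9.62, 7.56, 9.22 and 8.70 at 24 h. It was highest in the 24 h arrays of replicates 1 and 2, while the 24 h array of replicate 3 lay below the 0 h arrays of replicates 1 and 4, so the groups overlapped. Its mean change was 1.90 (SE 0.24, adjusted p = 5.86e-05), and 0.76 with the fibroblast level (adjusted p = 0.00915). Thbs1, a matricellular thrombospondin, changed by 1.45 (r = 0.96), and by 0.04 with the level (adjusted p = 0.885). The collagens moved less than the other matrix genes named. Col1a1, a chain of type I collagen, stood at 8.55, 8.69, 8.59, 8.59 and 9.0 at 0 h and at 9.89, 9.47, 8.55, 9.01 and 8.79 at 24 h. It rose in replicates 1, 2 and 4 and did not in replicates 3 and 5. The mean change was 0.46 (adjusted p = 0.0276), and it turned to -0.11 with the level (adjusted p = 0.603). Col1a2 gave 0.45 (adjusted p = 0.0204) and -0.09 with the level (adjusted p = 0.618), and neither collagen was called without the 2 arrays at 24 h of highest fibroblast level (adjusted p = 0.284 and 0.199). Col3a1, of type III collagen, lay at 7.57, 7.70, 7.53, 7.54 and 7.96 at 0 h and at 7.39, 7.73, 7.32, 7.56 and 7.56 at 24 h, with no rise in 3 of the 5 replicates (difference -0.15, adjusted p = 0.133). Lox was the 1 matrix gene called with the level in the fit.

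The contractile and adhesion genes rose more widely, 22 of 26 with a median of 0.86, and 12 without those 2 arrays. With only the 10 arrays of 0 h and 24 h, 8 were called with the block and 1 without it. Acta2, smooth muscle actin, stood at 10.83, 10.87, 9.84, 11.16 and 10.24 at 0 h and at 12.87, 12.85, 11.05, 12.21 and 12.22 at 24 h. Every replicate rose, but the 24 h array of replicate 3 lay below the 0 h array of replicate 4, and the groups overlapped. The change was 1.65 (SE 0.17, adjusted p = 6.49e-06), and 0.97 with the level (adjusted p = 0.00212). Tagln, the actin-binding transgelin, gave 1.44 and 0.60 (adjusted p = 7.02e-05 and 0.0186). Vcl, which encodes the adhesion protein vinculin, differed from them. It stood at 9.69, 9.78, 9.96, 10.04 and 9.68 at 0 h and at 10.76, 10.71, 10.57, 10.64 and 10.55 at 24 h, so that all 24 h arrays lay above all 0 h arrays and replicate 3 rose with the rest. Its r with the fibroblast level was 0.44, and its change was 0.82 without and 0.61 with the level (adjusted p = 1.28e-06 and 0.000771). With the level, 6 of the 26 remained higher and 2 were lower. These genes are part of the level, so what remains of them is a difference among members and not an independent test.

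Myl9, the regulatory light chain of myosin, changed by 1.38 (adjusted p = 7.56e-05). Vcl and Myl9 are shown here because their promoters hold a CArG box, the element bound by serum response factor, which drives contractile genes. The RefSeq windows (GRCm38.p6) run from 250 bases before the start site to 50 bases after it, 5′ to 3′ on the strand of the gene, and capitals mark the CArG box, whose pattern is the same on both strands. Of 19 contractile and adhesion genes that rose and have a window, 3 hold the box (Vcl, Myl9 and Cnn2), against 1.81% of 27025 genes. The match is a description of the sequence. Vcl lies at chr14:20929148-20929447 on the plus strand and Myl9 at chr2:156775214-156775513 on the plus strand.
Vcl: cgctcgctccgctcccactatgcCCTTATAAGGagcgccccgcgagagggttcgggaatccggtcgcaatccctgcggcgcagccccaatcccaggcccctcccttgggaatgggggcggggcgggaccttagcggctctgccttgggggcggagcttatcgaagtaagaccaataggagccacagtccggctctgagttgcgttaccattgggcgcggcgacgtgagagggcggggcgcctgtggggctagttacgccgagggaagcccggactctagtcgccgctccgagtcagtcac
Myl9: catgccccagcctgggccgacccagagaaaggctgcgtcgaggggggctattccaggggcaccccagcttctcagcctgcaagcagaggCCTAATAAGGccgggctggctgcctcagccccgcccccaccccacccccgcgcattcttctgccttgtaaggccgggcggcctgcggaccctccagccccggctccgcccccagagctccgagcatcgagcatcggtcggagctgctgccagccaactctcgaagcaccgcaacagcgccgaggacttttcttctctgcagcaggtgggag

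The 8 largest rises that ran with the level and did not overlap were Ephx1, Glipr1, Postn, Gask1b, Phlda3, Fgf7, Epha2 and Ccdc80. They parted in the resistant lines. Postn, a matrix protein of fibroblasts, Fgf7, a growth factor made by fibroblasts, Gask1b and Ccdc80 were lower in all 3 lines, as the fibroblast level was. These differences have 1 array a state and no test, and some are close to 0, such as -0.002 for Postn in R1000 and -0.06 for Ccdc80 in R4000. Ephx1, Glipr1, Phlda3 and Epha2 were higher in all 3, and they were the 4 of the 133 genes that did. Phlda3, a p53 target that restrains AKT, stood at 7.60, 7.81, 7.86, 8.61 and 7.90 at 0 h and at 9.99, 9.65, 8.87, 9.49 and 9.17 at 24 h. All 24 h arrays lay above all 0 h arrays, with the highest values in replicates 1 and 2. It rose by 1.48 (adjusted p = 0.000103), by 0.52 with the level (adjusted p = 0.0179), and differed by 0.46, 0.65 and 0.80 in R500, R1000 and R4000. Ephx1, microsomal epoxide hydrolase, stood at 6.86, 7.08, 7.27, 7.83 and 7.04 at 0 h and at 9.69, 9.37, 8.71, 8.90 and 8.62 at 24 h, again with no overlap. Its change of 1.84 (adjusted p = 0.000219) was 0.64 with the level and no longer called (adjusted p = 0.07), while it was 0.35, 0.98 and 0.74 in the 3 resistant lines.

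Rises with a course between were led by Cd80 (r = 0.52 with the fibroblast level) and p53 targets. Cd80, a costimulatory ligand for T cells, stood at 6.59, 7.00, 7.10, 7.91 and 7.03 at 0 h and at 9.72, 9.77, 9.67, 9.67 and 9.28 at 24 h. Even the lowest 24 h array, that of replicate 5, lay above the highest 0 h array, that of replicate 4. The mean rise was 2.50 or 5.64-fold (SE 0.18, adjusted p = 1.39e-07), 1.90 with the level (adjusted p = 5.25e-05) and 0.83, 1.19 and 1.50 in R500, R1000 and R4000. A second probe set of Cd80 rose by 1.25. Cd80 was the largest of the 15 largest rises of this kind, of which all 15 were called without the block, 12 with the level and 10 were higher in all 3 resistant lines.

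Of 37 measured p53 targets, 20 rose and 3 fell at 24 h, 13 and 3 with the level in the fit and 11 and 2 without the block, and the median of the list was 0.22. Over all genes the shares were 11.8% and 11.9%, 8.6% and 2.62% with the level, and 4.35% and 2.43% without the block. In the fit of the 10 arrays of 0 h and 24 h with the block, 7 were higher and 1 lower. Dglucy, a mitochondrial glutamate cyclase, stood at 6.46, 6.68, 6.60, 6.84 and 6.79 at 0 h and at 8.97, 8.78, 9.01, 8.66 and 8.62 at 24 h. The groups did not overlap, and each was narrow beside the gap between them. Its rise was 2.13 (SE 0.11, adjusted p = 2.08e-09), and 1.87 with the level (adjusted p = 4.05e-06). Zmat3, a zinc finger protein that binds RNA, stood at 7.53, 7.48, 7.42, 7.83 and 7.25 at 0 h and at 9.21, 9.62, 9.57, 9.59 and 9.44 at 24 h, again with no overlap. It rose by 1.98 (SE 0.10, adjusted p = 1.26e-09), by 1.88 with the level (adjusted p = 3.05e-06), and differed by 1.26, 1.29 and 1.82 in the resistant lines. Psrc1, which binds microtubules, rose by 1.41 (adjusted p = 2.18e-07) and Ccng1, cyclin G1, by 0.92 (adjusted p = 3.66e-07), and both were called with the level (adjusted p = 3.61e-05 and 0.000265). Aen, an apoptosis-enhancing nuclease, and Pmaip1, the BH3-only protein Noxa, rose by 0.44 and 0.44 (adjusted p = 0.000224 and 0.000754).

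Other p53 targets ran with the fibroblast level or changed less. Perp, a desmosomal p53 target, changed by 1.29 (adjusted p = 0.00352) with r = 0.96, and by -0.04 with the level (adjusted p = 0.859). Mdm2, the ubiquitin ligase that degrades p53, stood at 10.38, 10.88, 10.35, 10.68 and 10.18 at 0 h and at 10.98, 11.32, 10.68, 10.95 and 10.73 at 24 h. Each replicate rose, by 0.60, 0.43, 0.33, 0.27 and 0.56, but the groups overlapped, and the change of 0.44 (adjusted p = 0.0033) was 0.15 with the level (adjusted p = 0.37) and had adjusted p = 0.118 without the block. In the resistant lines Mdm2 differed by -0.25, -0.04 and -0.69. Bbc3, which encodes the BH3-only protein Puma, differed by 0.24 (adjusted p = 0.0637), with 4 of 5 replicates higher. The 3 targets that fell were Btg2, Ddit4 and the p53-induced phosphatase gene Ppm1d (-0.23, adjusted p = 0.00608). Trp53 and Cdkn1a were not analysed here, since the annotation gives neither a probe set of its own.

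Of 27 NRF2-type genes 19 rose, with a median of 0.36 over the list. The count was 11 without the block, 12 without the 24 h array of replicate 2 and 10 without the 2 arrays at 24 h of highest fibroblast level. With the level in the fit 6 were higher and 1 lower. Over all genes 11.8% were higher, 4.35% without the block, and with the level 8.6% were higher and 2.62% lower. Hmox1, heme oxygenase 1, stood at 8.80, 8.47, 9.39, 10.26 and 9.03 at 0 h and at 11.80, 10.77, 10.76, 11.42 and 10.61 at 24 h. All 24 h arrays were above all 0 h arrays, and the smallest rise was that of replicate 4, which had the highest value at 0 h. The change was 1.88 (SE 0.38, adjusted p = 0.00271) and 0.36 with the level (adjusted p = 0.533), and the resistant lines differed by 0.51, 0.10 and -0.11. Nqo1, a quinone reductase, stood at 6.47, 7.12, 6.52, 7.40 and 6.52 at 0 h and at 9.14, 8.81, 8.50, 8.71 and 8.08 at 24 h. It did not overlap either, and it rose by 1.84 (adjusted p = 0.00162), but by 0.85 with the level (adjusted p = 0.206), and it differed by -0.36, 0.03 and -0.76 in the resistant lines. Gclm, Txnrd1, Pir and the glutathione conjugate exporter Abcc1 kept their calls with the level. Gclm, the modifier subunit of glutamate-cysteine ligase, rose by 0.65 without and 0.67 with the level (adjusted p = 0.000356 and 0.0138). Txnrd1, cytosolic thioredoxin reductase, rose by 0.57 and 0.62 (adjusted p = 0.00107 and 0.0186). Pir, the nuclear protein pirin, rose by 0.58 and 0.52 (adjusted p = 0.000256 and 0.0225).

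The windows of these 3 genes are printed because each holds TGACNNNGC, the core of the antioxidant response element bound by NRF2, on one strand or the other. It was found in 5 of 15 NRF2-type genes that rose and have a window (Gclm, Me1, Pir, Prdx1 and Txnrd1) and in 14% of all 27025 genes. The capitals mark the core, which appears here as its reverse complement, 2 times in Pir. Txnrd1 has 3 windows, of which 1 holds it. Gclm lies at chr3:122245307-122245606, Txnrd1 at chr10:82858956-82859255 and Pir at chrX:164269181-164269480, all on the plus strand.
Gclm: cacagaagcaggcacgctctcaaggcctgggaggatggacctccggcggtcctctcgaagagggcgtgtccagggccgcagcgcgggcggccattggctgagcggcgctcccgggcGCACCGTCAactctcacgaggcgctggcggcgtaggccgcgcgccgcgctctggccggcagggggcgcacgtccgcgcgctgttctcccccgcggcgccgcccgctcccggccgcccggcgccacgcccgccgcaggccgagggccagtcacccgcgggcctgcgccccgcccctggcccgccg
Txnrd1: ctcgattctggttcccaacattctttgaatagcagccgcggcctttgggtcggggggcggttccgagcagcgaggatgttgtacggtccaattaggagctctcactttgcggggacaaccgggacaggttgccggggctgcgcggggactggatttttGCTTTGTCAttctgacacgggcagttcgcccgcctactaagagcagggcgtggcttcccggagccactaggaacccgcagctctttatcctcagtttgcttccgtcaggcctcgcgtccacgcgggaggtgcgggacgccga
Pir: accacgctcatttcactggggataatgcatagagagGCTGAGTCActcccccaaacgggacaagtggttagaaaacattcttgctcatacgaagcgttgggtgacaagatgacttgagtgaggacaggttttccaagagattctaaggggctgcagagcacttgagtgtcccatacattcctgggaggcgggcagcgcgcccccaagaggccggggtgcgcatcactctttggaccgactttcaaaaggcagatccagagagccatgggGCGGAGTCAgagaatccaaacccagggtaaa

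Genes of B cell stages moved in both directions. Igll1, a component of the surrogate light chain of pre-B cells, stood at 9.30, 10.18, 9.75, 10.03 and 9.93 at 0 h and at 11.41, 10.54, 12.38, 11.80 and 11.70 at 24 h. The smallest rise was that of replicate 2 and the largest that of replicate 3, the replicate in which the fibroblast level hardly moved. The mean was 1.73 (SE 0.23, adjusted p = 9.87e-05), and 2.11 with the level (adjusted p = 0.00126). Its partner Vpreb1 rose by 0.90 and the ectoenzyme gene Bst1 by 0.74 (adjusted p = 8.15e-05 and 0.000646). Of 19 early B genes, 6 rose and 4 fell, among them the recombinase gene Rag1, by 0.55 on the log2 scale (adjusted p = 0.0017, and 0.37 without the block). With the level 5 early B genes were higher and limma called 0 lower, with Rag1 at -0.33 (adjusted p = 0.147). Without the block 4 were higher and 1 lower. The blocked fit of the 10 arrays of 0 h and 24 h gave 2 and 0 (7 and 2 at an unadjusted p under 0.05). Of 17 mature B and plasma cell genes, 5 rose and 3 fell, and with the level 4 and 4. Over all genes 11.8% were higher and 11.9% lower, and 8.6% and 2.62% with the level. Cr2, the complement receptor CD21, rose by 0.74 (adjusted p = 0.000588) and ran against the fibroblast level (r = -0.89), while the chemokine receptor gene Ccr7 fell by 0.54 on the log2 scale (adjusted p = 0.00348).

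Mpeg1, a perforin-like protein of macrophages, stood at 7.54, 7.52, 7.35, 7.81 and 7.32 at 0 h and at 8.37, 8.13, 9.61, 9.48 and 9.32 at 24 h. All 24 h arrays were above all 0 h arrays, by least in replicates 1 and 2. It rose by 1.47 and, with the level, by 1.99 (adjusted p = 5.3e-05 and 0.000128), and differed by 1.00, 1.16 and 0.96 in the resistant lines. Alox5ap, which presents arachidonic acid to 5-lipoxygenase, rose by 1.43 (adjusted p = 2.13e-06), Cfp, the complement factor properdin, by 1.30 (adjusted p = 7.02e-05), and Gas7, a growth arrest gene of the cytoskeleton, by 1.34 (adjusted p = 1.45e-06). The myeloid marker list did not move together, with 4 of 19 higher and 5 lower, against 11.8% and 11.9% of all genes. Its mean level was 7.24 ± 0.12 at 0 h and 7.25 ± 0.11 at 24 h (SD, n = 5 each). Without the 0 h array of replicate 5, 4 were higher and 1 lower. Tyrobp, an adaptor of myeloid and NK cell receptors, rose by 0.82 (adjusted p = 5.06e-05) and S100a9, an abundant neutrophil protein, fell by 0.43 on the log2 scale (adjusted p = 0.013). The part of other blood cells in these rises was not tested.

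Bex6, a member of the brain-expressed X-linked family, stood at 8.23, 8.17, 7.34, 7.91 and 6.99 at 0 h and at 9.81, 9.45, 10.04, 9.65 and 9.25 at 24 h. It rose by at least 1.28 in each replicate and by 1.91 on average (adjusted p = 6.94e-07), by 2.38 with the level (adjusted p = 3.5e-06), but it differed by -0.15, 0.65 and 0.22 in R500, R1000 and R4000. Fetub, a secreted fetuin, rose by 1.69 (adjusted p = 9.55e-07) and differed by 1.14, 1.38 and 0.54 in those lines. Snora44, a small nucleolar RNA, rose by 2.50, 2.61, 0.83, 1.03 and 0.63 in replicates 1 to 5, most in the replicates with the largest rise of the fibroblast level, and by 0.43 with that level (adjusted p = 0.445). Hbb-bh1, an embryonic globin, went from a mean of 5.48 to 6.80, a rise of 1.32 (adjusted p = 0.000189). It lay low on the arrays, where the median of all genes at 0 h was 7.58. The rise was 1.92, 1.10, 1.89, 1.25 and 0.44 in replicates 1 to 5, and the resistant lines differed by 0.20, 0.31 and -0.21. Of 8 genes of the erythroid list, 4 were lower and limma called 0 higher (1 at an unadjusted p under 0.05), against 11.9% and 11.8% of all genes.

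**Figure D3:**
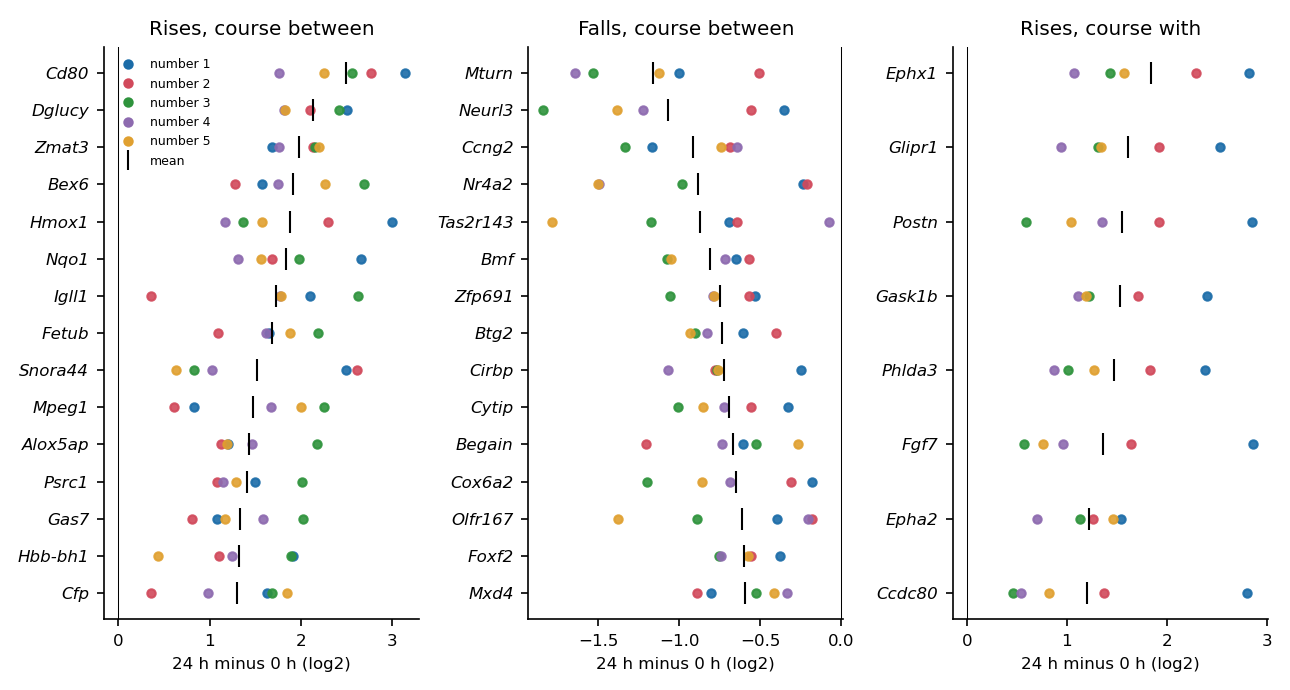
Log2 change from 0 h to 24 h in each replicate (coloured points) and its mean (black bars) for the 15 largest rises and 15 largest falls with a course between and the 8 largest rises that ran with the fibroblast level. Rises that ran with the level were largest in replicate 1, while Zmat3 and Dglucy moved by about the same amount in every replicate and several falls were larger in replicates 3 to 5.

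The falls were more numerous than large. Of the 2363 genes called lower, 2357 had a course between, 4 ran with the fibroblast level and 2 against it, and the median change was -0.27. They lay low on the arrays, with a median level of 7.09 at 0 h against 7.58 for all genes, and 1635 of them were under the median level of all genes. Without the 0 h array of replicate 5, 1107 genes were lower, 465 of them under the median level, and without the 24 h array of that replicate 1089 were lower. The count also fell to 1420 and 1285 without the 0 h or the 24 h array of replicate 3, and to 1317 without the 24 h array of replicate 2. With the fibroblast level in the fit 523 genes were lower. In the resistant lines, 18.8% of the called falls were lower in all 3, against 21.5% of all genes.

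The arrays of the groups did not overlap for 518 genes that were lower (2.6%). The 15 largest of them that were called and had a course between were all called with the fibroblast level and 13 of them without the block. Mturn, known as maturin from work on neural progenitors, stood at 7.75, 7.43, 8.49, 8.72 and 8.34 at 0 h and at 6.75, 6.93, 6.96, 7.07 and 7.22 at 24 h. It fell in every replicate, and the 0 h levels were spread more widely than the 24 h levels. The mean change was -1.16 (SE 0.17, adjusted p = 0.000167). Neurl3, an ubiquitin ligase, stood at 7.94, 8.05, 9.11, 8.78 and 9.07 at 0 h and at 7.59, 7.49, 7.27, 7.56 and 7.69 at 24 h. Its 0 h arrays of replicates 1 and 2 lay near 8 and those of replicates 3 to 5 near 9, while all 24 h arrays lay between 7.27 and 7.69. It fell by 1.07 on the log2 scale (SE 0.17, adjusted p = 0.000506).

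Of 24 genes of the quiescent state 13 fell and 3 rose, with a median of -0.27, against 11.9% and 11.8% of all genes. With the fibroblast level 11 were lower, against 2.62%, and in the blocked fit of the 10 arrays of 0 h and 24 h 4. Ccng2, cyclin G2, which rises in cells leaving the cycle, stood at 10.40, 9.94, 10.35, 10.27 and 10.24 at 0 h and at 9.23, 9.25, 9.01, 9.62 and 9.50 at 24 h. Each replicate fell and the groups did not overlap, with a mean of -0.92 (SE 0.13, adjusted p = 0.000199). Bmf, a BH3-only protein that promotes apoptosis, stood at 9.04, 9.02, 9.52, 9.41 and 9.56 at 0 h and at 8.39, 8.45, 8.45, 8.69 and 8.50 at 24 h. It fell by 0.81 on the log2 scale (SE 0.09, adjusted p = 1.71e-05), most in replicates 3 and 5, and by 0.89 with the level (adjusted p = 0.000905). Btg2, an anti-proliferative gene that is also a p53 target, stood at 12.34, 12.43, 12.52, 12.65 and 12.73 at 0 h and at 11.74, 12.03, 11.62, 11.82 and 11.80 at 24 h. It fell in every replicate by 0.73 on the log2 scale on average (adjusted p = 6.42e-06), but differed by 0.15, 0.15 and 0.05 in R500, R1000 and R4000. Mxd4, a repressor that competes with Myc for Max, Cdkn1b, the CDK inhibitor p27, and Txnip, an inhibitor of thioredoxin, fell by 0.59, 0.39 and 0.35 on the log2 scale (adjusted p = 0.000344, 0.00138 and 0.00471).

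Btg2 and Mturn are shown by sequence because both windows hold the cyclic AMP response element TGACGTCA, which is its own reverse complement, and which was found in 2 of 13 named falls with a window against 2.03% of all 27025 genes. The capitals mark the element, once in Btg2 and 2 times in Mturn. Btg2 lies at chr1:134079106-134079405 on the minus strand and Mturn at chr6:54681374-54681673 on the plus strand.
Btg2: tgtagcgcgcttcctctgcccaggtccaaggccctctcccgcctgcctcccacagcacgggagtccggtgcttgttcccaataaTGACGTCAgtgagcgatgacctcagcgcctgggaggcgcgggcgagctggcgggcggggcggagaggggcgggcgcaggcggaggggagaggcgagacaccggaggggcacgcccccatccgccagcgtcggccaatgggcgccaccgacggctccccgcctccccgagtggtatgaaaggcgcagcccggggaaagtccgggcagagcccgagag
Mturn: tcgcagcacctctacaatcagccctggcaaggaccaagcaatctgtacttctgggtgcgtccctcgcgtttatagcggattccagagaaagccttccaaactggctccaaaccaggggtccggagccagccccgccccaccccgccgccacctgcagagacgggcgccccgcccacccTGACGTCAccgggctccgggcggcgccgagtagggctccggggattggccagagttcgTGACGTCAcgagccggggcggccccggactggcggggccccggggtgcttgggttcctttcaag

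Falls of 2-fold or more came from 7 genes, Rgs16, Fosb, Mturn, Mir181b-2, Neurl3, S1pr1 and Nr4a1, of which all but Mturn and Neurl3 were picked out after their values were seen. In these 5 genes the groups overlapped, and in all of them but Mir181b-2 the fall was far larger in replicates 3 to 5 than in replicates 1 and 2. Nr4a1, an orphan nuclear receptor that responds quickly to cell stimulation, stood at 9.16, 9.51, 11.34, 11.14 and 11.17 at 0 h and at 9.51, 9.30, 9.43, 9.56 and 9.45 at 24 h. The 0 h arrays of replicates 3 to 5 were above 11, whereas those of replicates 1 and 2 were near the level of the 24 h arrays. Its mean change was -1.01 (SE 0.25, adjusted p = 0.00985). Rgs16, a regulator of G protein signalling, stood at 8.92, 8.57, 11.14, 11.77 and 11.96 at 0 h and at 8.43, 8.73, 8.51, 9.78 and 9.70 at 24 h. It fell by 2.62, 1.99 and 2.26 on the log2 scale in replicates 3 to 5, and differed by -0.49 and 0.15 in replicates 1 and 2 (mean -1.44, adjusted p = 0.00765, and 0.146 without the block).

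S1pr1, the sphingosine 1-phosphate receptor that guides exit from lymphoid tissue, differed in another way. It stood at 9.73, 10.25, 10.08, 9.85 and 9.81 at 0 h and at 9.50, 9.93, 8.41, 8.31 and 8.49 at 24 h, so that the 0 h arrays did not split by replicate and the 24 h arrays of replicates 3 to 5 lay more than 1 below those of replicates 1 and 2 (mean -1.02, adjusted p = 0.00228, and 0.107 without the block).

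The split at 0 h seen for Nr4a1 and Rgs16 was counted over the falls. Of 91 genes called lower by at least 0.5, 38 (41.8%) had all 0 h arrays of replicates 3 to 5 above both 0 h arrays of replicates 1 and 2, against 264 of the 2363 called falls (11.2%) and 10.5% of all genes. The split was chosen after the values were seen, and the 91 were taken by the size of their fall, to which high 0 h arrays add, so their share is a description. Their median 24 h levels differed little, between 7.49 and 7.69 over the 5 replicates of the 91 genes. The mean level of 24 immediate early and NR4A genes changed by 0.37 and 0.18 in replicates 1 and 2. In replicates 3 to 5 it changed by -0.38, -0.68 and -0.45. Of the 24 genes 8 were called lower and 2 higher, against 11.9% and 11.8% of all genes. Without replicate 3 at both times 3 were lower, as without replicate 5. Without replicate 4, 5 were lower, and without the 0 h array of replicate 3 or 5 there were 5 and 4. In the fit of the 10 arrays of 0 h and 24 h with the block, 1 of the 24 was called, and it was higher (limma, with 9 lower at an unadjusted p under 0.05). Nr4a2 stood at 8.89, 8.97, 9.40, 9.96 and 9.89 at 0 h and at 8.66, 8.76, 8.42, 8.46 and 8.39 at 24 h, and it fell by 0.88 on the log2 scale without overlap (adjusted p = 0.00194). Ier5 went the other way and rose in all 5 replicates, by 0.76 on average (adjusted p = 1.78e-06).

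**Figure D4:**
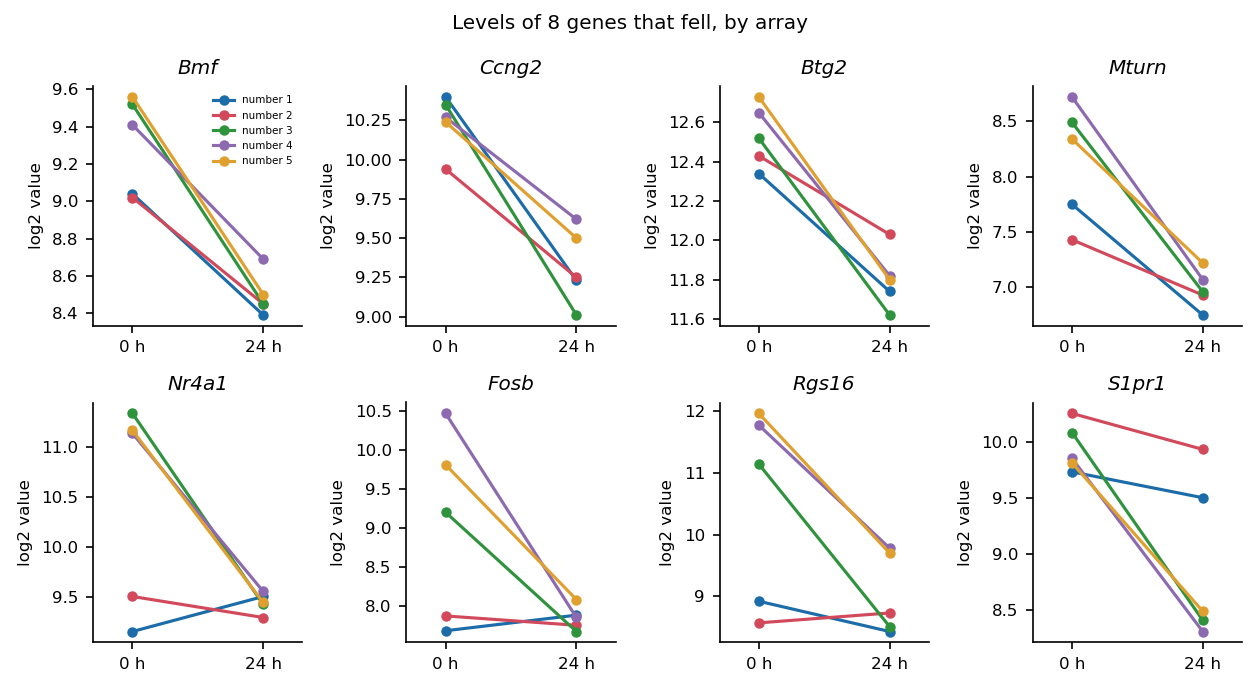
Log2 values of 8 genes that fell, with lines joining the 0 h and 24 h arrays of each replicate number. Bmf, Ccng2, Btg2 and Mturn fell in all 5 replicates without overlap of the groups, whereas Nr4a1, Fosb and Rgs16 differed at 0 h between replicates 1 and 2 and replicates 3 to 5, and S1pr1 differed at 24 h.

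Of 19 genes of NF-kB signalling 9 fell and 4 rose, with a median of -0.21, against 11.9% and 11.8% of all genes. Without the block 5 were lower and 2 higher, and without replicate 3 at both times 6 and 2. In the fit of the 10 arrays of 0 h and 24 h limma called 0 of them, with the block (9 lower and 4 higher at an unadjusted p under 0.05) or without it (8 and 4). The subunit gene Rel fell by 0.77 on the log2 scale and stood at 10.94, 11.13, 11.74, 11.65 and 11.90 at 0 h and at 10.55, 10.97, 10.65, 10.60 and 10.75 at 24 h. Its 0 h arrays of replicates 3 to 5 were the highest, and the 0 h array of replicate 1 overlapped the 24 h group (adjusted p = 0.000979). Nfkbie, an inhibitor of the pathway and one of its targets, fell without overlap by 0.59 on the log2 scale (adjusted p = 0.00328). The cytokine genes Tnf and Lta rose instead, by 0.64 and 0.52 (adjusted p = 0.0018 and 0.00237), also with the level in the fit (adjusted p = 0.00211 and 0.00232). Of 15 genes of TGF-beta feedback 3 fell and 1 rose (against 11.9% and 11.8% of all genes). The falls included Smad7, an inhibitor of the receptor, by 0.65 on the log2 scale (adjusted p = 0.00385), and Skil by 0.80 (adjusted p = 0.00411). Pmepa1, another inhibitor of the pathway, rose by 0.85 (adjusted p = 0.0379) with r = 0.90, and was at -0.58 with the level (adjusted p = 0.00273). The changes in replicates 1 to 5 were -0.19, -0.11, -1.30, -0.84 and -0.79 for Smad7. They were -0.58, -0.09, -1.64, -0.89 and -0.80 for Skil, so that both were smallest in replicate 2 and largest in replicate 3. Of 15 histone demethylases 1 was higher and 2 were lower, close to the shares of all genes. Kdm5b, of H3K4, rose by 0.55 (adjusted p = 0.0246), and Kdm4b, of H3K9, fell by 0.15 on the log2 scale (adjusted p = 0.023). Kdm5b changed by 1.11, 0.78, 0.15, 0.27 and 0.44 in replicates 1 to 5. With the level Kdm5b was at -0.17 and Kdm4b at -0.14, and limma called neither (adjusted p = 0.417 and 0.216). Neither was called without the block (adjusted p = 0.0649 and 0.195). Kdm6b, of H3K27, fell by 0.71 on the log2 scale (adjusted p = 0.00225), with changes of -0.14, -0.21, -1.20, -1.04 and -0.98 in replicates 1 to 5.

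Outside these groups, Cirbp, a cold-inducible RNA-binding protein, stood at 9.93, 10.15, 10.28, 10.46 and 10.39 at 0 h and at 9.69, 9.38, 9.51, 9.40 and 9.63 at 24 h. It fell in every replicate without overlap, by 0.72 on the log2 scale (adjusted p = 0.000115). Cytip, an adaptor that controls leukocyte adhesion, fell by 0.69 on the log2 scale in the parental cells (adjusted p = 0.000111) and differed by 0.10, 0.04 and 0.10 in the resistant lines. Foxf2, a forkhead factor, and Zfp691, a zinc finger protein, fell by 0.60 and 0.75 on the log2 scale (adjusted p = 2.92e-05 and 6.56e-05). The falls of Tas2r143 and Olfr167, chemosensory receptor genes at levels of 4.74 to 7.11, had their highest value in the 0 h array of replicate 5, and neither was called without the block (adjusted p = 0.0637 and 0.074). Among markers of other blood cells, 6 of 19 T and NK cell genes were lower and 2 higher, and 4 of 8 erythroid genes were lower. Without the 0 h array of replicate 5, 3 and 2 were lower. Of 14 endothelial and epithelial genes 1 rose and 1 fell. Over all genes 11.8% were higher and 11.9% lower.

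Of 28 crosslink repair and checkpoint genes 6 rose, by at most 0.67, and 1 rose without either array of replicate 5, 2 without either array of replicate 3 and 3 without the 24 h array of replicate 2. With the fibroblast level in the fit 9 were higher, and the median went from 0.13 to 0.31. Prkdc, the catalytic subunit of DNA-PK, rose by 0.67 and Atm by 0.40 (adjusted p = 0.0012 and 0.0167). Of 29 replication and G1/S genes 7 rose, by at most 0.47 (median 0.10), and 5 with the level (median 0.21). Without either array of replicate 3 or of replicate 5, 4 rose, and 12 without the 0 h array of replicate 1. Of 29 genes of G2/M and mitosis 2 rose and 2 fell (median 0.03), and 7 were higher and 0 lower with the level (median 0.24). Of 28 genes of ribosome biogenesis and other Myc targets 3 were higher, with medians of 0.07 and 0.13 without and with the level. In the fit without the level both lists lay under the shares of all genes, 11.8% higher and 11.9% lower. With the level the shares of all genes were 8.6% higher and 2.62% lower. There the 7 of 29 G2/M genes lay well above the share that was higher, and 3 of 28 Myc targets were higher. Both counts moved with the fit. Without the block limma called 0 in each list (2 higher and 2 lower at an unadjusted p under 0.05 for G2/M, 3 higher for Myc targets), and the Myc targets gave 6 without the 0 h array of replicate 1, 0 without the 0 h array of replicate 3 or 5 and 1 without the 24 h array of either. Myc itself stood at 13.10, 13.28, 13.17, 13.09 and 13.01 at 0 h and at 13.03, 13.08, 13.11, 13.07 and 13.07 at 24 h, with groups that overlapped (difference -0.06, adjusted p = 0.359). Among chaperones of the endoplasmic reticulum, Hspa5 rose by 0.47 and Calr, calreticulin, by 0.38 without overlap (adjusted p = 0.000486 and 0.000102), whereas the amino acid response gene Asns fell by 0.38 on the log2 scale (adjusted p = 0.0122). They belong to a list of 21 ATF4 and unfolded protein response genes, of which 7 rose, Slc7a11 among them, and 6 fell. Both with the level and without the block 6 were higher and 1 lower. Without the block 4.35% of all genes were higher and 2.43% lower. Of 19 lysosomal genes 11 rose, 3 with the fibroblast level in the fit. Of 10 heat shock genes 5 were higher, and of 14 BCL2 family genes and 19 genes of hypoxia and glycolysis 4 each, with 2 lower in both. Without the block 1 gene was higher in each of these 3 lists, with the level 2, 3 and 0, and without the 24 h array of replicate 5 there were 3, 1 and 1. Of 15 cold-inducible and clock genes 1 was higher and 2 lower. Hexa, a subunit of hexosaminidase, rose by 0.53 and 0.37 (adjusted p = 4.89e-05 and 0.0184). Insig1, which holds back sterol synthesis, fell by 0.50 on the log2 scale (adjusted p = 0.0051). Of 21 interferon-type genes 5 rose and 2 fell, with Bst2, the antiviral protein tetherin, higher by 0.60 (adjusted p = 1.49e-05).

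**Figure D5:**
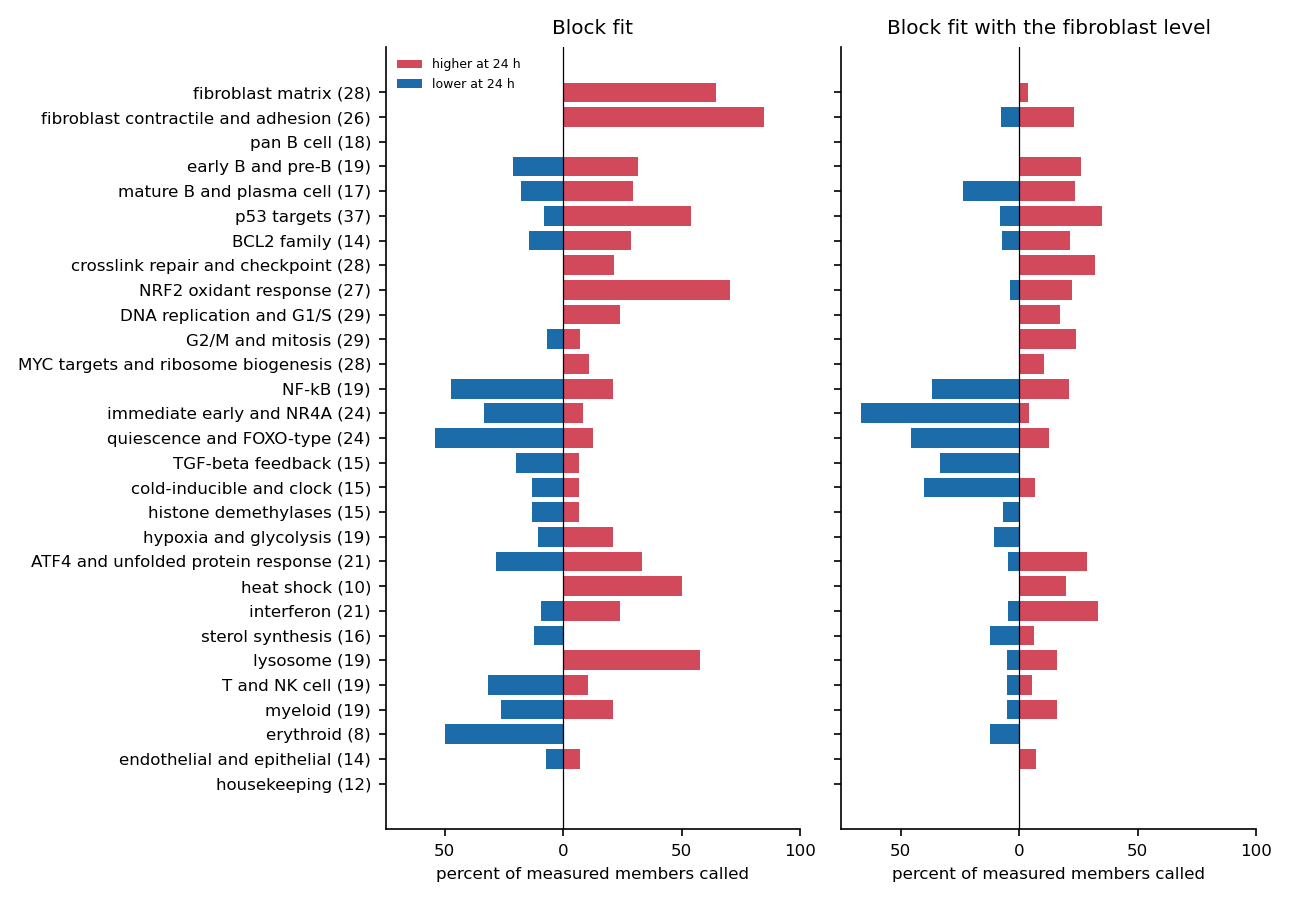
Percent of the measured members of each list (number in brackets) that were called higher (red, to the right) or lower (blue, to the left) at 24 h, in the fit with the replicate block (left) and with the fibroblast level added (right). The matrix list went from 18 of 28 higher to 1, and p53 targets from 20 of 37 to 13, while immediate early genes went from 8 to 16 of 24 lower. Of these 24, 5 ran with the fibroblast level. Their mean fell only in replicates 3 to 5, where that level rose less than in replicates 1 and 2.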

How the data were processed

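RNA was hybridised to Affymetrix Mouse Gene ST arrays. The deposited log2 values were made by the authors with RMA in the affy package on mm9 annotation. Platform annotation named 1 gene for 21640 of 34760 probe sets, several for 1321 and left 11799 unlisted. The probe set with the highest mean was kept for each of 19937 genes. The 23 parental arrays were fitted with limma 3.58.1 in R 4.3.3 (lmFit and eBayes, two-sided, Benjamini-Hochberg adjustment over all genes), with time and the replicate number of the array description as terms. At 6 h and 12 h the titles number the 8 arrays 1 to 4 where the descriptions give 2 to 5. The number was taken to pair the arrays. Deviations of same-numbered 0 h and 24 h arrays from their group means correlated at 0.167, 0.342, 0.187, 0.196 and 0.131, all over the limit of 0.1 set here. Arrays of different numbers were not compared in this way, so these r do not establish the pairing. Precision is limited by the 5 arrays a group. Genes were named as the 15 largest rises and 15 largest falls without overlap and with a course between, the 8 largest rises with the fibroblast level, up to 4 members a list by smallest p, and fixed names. Aen, Perp, Ppm1d, Txnrd1, Cdkn1b, Txnip and Asns are list members given outside this rule. The 2-fold falls other than Mturn and Neurl3 are outside it as well. Predicted models were passed over. Members and lists were chosen with earlier results of these data known. The script was tested on simulated data. Alternatives changed the block, the arrays, the centring, the filter, the probe sets and the weights.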

Additional observations from a re-analysis of the deposited data

Results flagged for a closer look

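In 3 of 114 groups of 5 arrays, taken from 56 genes and the fibroblast level, 1 array lay far from the other 4, where chance gives about 1 group in 20. These were Col1a2 in the 0 h array of replicate 5 at 8.63, the B lineage factor gene Pax5 in the 0 h array of replicate 1 at 11.5, and Cd80 in the 24 h array of replicate 5 at 9.28, which was still above every 0 h array.

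Several named genes moved one way in the parental comparison and the other way in all 3 resistant lines, each with 1 array a state, and this difference was not tested. Btg2, Cytip and Cox6a2 changed by -0.73, -0.69 and -0.65 on the parental arrays and were higher in R500, R1000 and R4000. Postn, Gask1b, Fgf7, Ccdc80, Acta2 and Lox, which ran with the fibroblast level, changed by 1.55, 1.53, 1.36, 1.20, 1.65 and 1.90 on the parental arrays. They were lower in the 3 lines, where the fibroblast level was lower as well. Mdm2 changed by 0.44 on the parental arrays and was lower in the 3 lines.

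Among 13120 probe sets without a single gene symbol, fitted on their own, 349 were called, 158 higher and 191 lower.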

How the results depend on the processing

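Numbers of genes called depended strongly on the fit. Without the replicate block 1351 genes were called, 867 higher and 484 lower. With only the 10 arrays of 0 h and 24 h there were 309 (282 higher, 27 lower) with the block and 122 (107 and 15) without it. Median centring gave 3618 lower, the filter at the median level 2741 (810 lower), array weights 1803 (1224 higher, 579 lower), and leaving out the 2 arrays at 24 h of highest fibroblast level 2523 (755 lower). Leaving out 1 array or 1 number gave 2464 to 5814 genes in all, 1542 to 3025 higher and 893 to 3192 lower. The lowest total came without replicate 5 and the lowest number of falls without replicate 3.

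With the fibroblast level in the fit, 518 genes (420 higher, 98 lower) were called without the block, 3782 (2582 and 1200) with the matrix list alone as the level, 1128 (865 and 263) with the contractile list alone and 1017 (819 and 198) after median centring. Leaving out 1 array gave 533 to 4030 in all, 403 to 2679 higher and 130 to 1351 lower. Genes that ran against the level numbered 281 at a limit of 0.6 and 323 after removing the number as well. Col1a1 and Col1a2 turned to -0.112 and -0.0914 with the level, while the other alternatives turned none of the 51 genes checked. Several genes kept their direction but lost their call. Of the 51, 19 did so with only the 0 h and 24 h arrays and no block, and 9 with those arrays and the block. In the fits of all parental arrays, 8 did so with the fibroblast level and 5 without the block. In these fits 0 of the 51 gained a call. Those 51 are the named rises and falls and the genes fixed by name, not the list members. Several list members also turned with the level, among them Perp, Pmepa1, Kdm5b, Cryab, Bag3 and Gata3. The cause of these shifts was not tested.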
